A study of Homo sapiens with 2 samples.

Results

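The miR-181 family was followed here as 5 mature miRNAs out of the 2549 human miRNAs on the array, chosen by name as hsa-miR-181a-5p, hsa-miR-181b-5p, hsa-miR-181c-5p, hsa-miR-181d-5p and hsa-miR-181a-3p, with all of their probes and spots. They were measured in HepG2 cells, a human liver cancer line, 48 h after transfection with the adenoviral vector Ad-uc.372 or the control vector Ad-NC. The title of the deposited data names the Ad-uc.372 condition as overexpression of uc.372, an ultraconserved long non-coding RNA. The study likewise reports that uc.372 was overexpressed in HepG2 cells for its miRNA microarray. Since the sample labels carry no suffix for an overexpressing or inhibiting vector, every direction below is given between the arrays as labelled. Each condition had 1 Agilent human miRNA array, labelled with Cy3, and no array carries a probe named for uc.372, so the level of the transcript itself was not measured in these files.

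A mature miRNA guides the Argonaute protein to messenger RNAs that pair with its seed, bases 2 to 8 from the 5′ end, and lowers their output. A hairpin precursor can give a mature miRNA from either arm, called 5p and 3p. In liver cancer, miR-181 is known from tumour cells that make alpha-fetoprotein and have stem-like features, where its known targets include the differentiation factors CDX2 and GATA6 and NLK, an inhibitor of Wnt signalling. HepG2 is itself a line that makes alpha-fetoprotein. In blood, miR-181a is known for setting the sensitivity of T cell receptor signalling.

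The mature sequences show why 4 of the members count as a family and how little separates them. They are printed 5′ to 3′ from RefSeq (GRCh38.p14), with the seed in capitals.
miR-181a-5p: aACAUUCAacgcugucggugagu
miR-181b-5p: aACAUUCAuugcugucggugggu
miR-181c-5p: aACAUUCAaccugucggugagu
miR-181d-5p: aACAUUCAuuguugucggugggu
miR-181a-3p: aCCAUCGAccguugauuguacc
The 4 members from the 5p arm shared the seed ACAUUCA, and miR-181a-3p had the seed CCAUCGA. Counted from 1 at the 5′ end of miR-181a-5p, miR-181b-5p differed by A9U, C10U and A21G. From miR-181b-5p to miR-181d-5p the only substitution was C12U. miR-181c-5p had 22 bases and equalled miR-181a-5p with base 11 left out. The sequences of the array's probes were not analysed here, so whether a probe for one member also binds another was not tested.

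In RefSeq's annotation the family comes from 6 hairpins in 3 pairs. MIR181A1 and MIR181B1 lie 61 bases apart on chromosome 1, where miR-181a-5p is at chr1:198859108-198859130 and miR-181b-5p at chr1:198858925-198858947, both on the minus strand and within the span of the long non-coding RNA gene MIR181A1HG. MIR181A2 and MIR181B2 lie 1158 bases apart on chromosome 9, with miR-181a-5p at chr9:124692480-124692502 and miR-181b-5p at chr9:124693725-124693747 on the plus strand, within the spans of MIR181A2HG and of the protein-coding gene NR6A1. MIR181C and MIR181D lie 66 bases apart on chromosome 19, with miR-181c-5p at chr19:13874725-13874746 and miR-181d-5p at chr19:13874910-13874932 on the plus strand, within the span of NANOS3. The member miR-181a-3p, at chr1:198859069-198859090 on the minus strand, comes from MIR181A1 alone. Because the sequence of miR-181a-5p is the same from both of its hairpins, and likewise that of miR-181b-5p, a probe cannot tell the copies on chromosomes 1 and 9 apart.

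Of the 53144 spots on an array, 50980 came from the 5893 probes for miRNAs. Values are processed signals, that is, the brightness of a spot after the scanner software subtracted its background, before any scaling unless a scaled level is named. The software flags spots it takes to be well above background. The dimmest such spot, called the limit here, was at 21.1 on the Ad-NC array and at 17.3 on the Ad-uc.372 array, and a probe was taken as measured when at least 50% of its spots not marked as outliers passed. By that rule 236 of 2549 miRNAs (9.26%) were well above background with Ad-NC, 260 (10.2%) with Ad-uc.372 and 229 (8.98%) on both arrays. The 1000 spots of the negative control probes had a median signal of 3.88 with Ad-NC and 3.42 with Ad-uc.372, and their 95th percentile was 11.1 and 9.83. Of the 5 liver miRNAs taken as markers, miR-192-5p, miR-194-5p and miR-148a-3p were well above background on both arrays and miR-122-5p and miR-885-5p on neither, and none of 12 markers of blood, endothelium, stroma, muscle or neurons was on either array. With 1 array per condition there is no replicate check and no test, so the SD values below cover the technical spread among spots and nothing between cultures. Each array measured RNA from a whole culture, so fewer cells with a miRNA and less of it per cell cannot be told apart.

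Of the 5 members, 1 was well above background, miR-181a-5p, and it was so on both arrays. The others, miR-181b-5p, miR-181c-5p, miR-181d-5p and miR-181a-3p, did not pass in either condition. miR-181a-5p was at nearly the same signal in both conditions. The members have 10 probes with 100 spots per array in all, of which 14 spots were well above background with Ad-NC and 15 with Ad-uc.372, and all of these but 1 were spots of miR-181a-5p. Over all miRNA spots the shares were 7.77% and 8.72%. The exception was a spot of miR-181a-3p with Ad-uc.372 that the software also marked as an outlier.

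**Figure D1:**
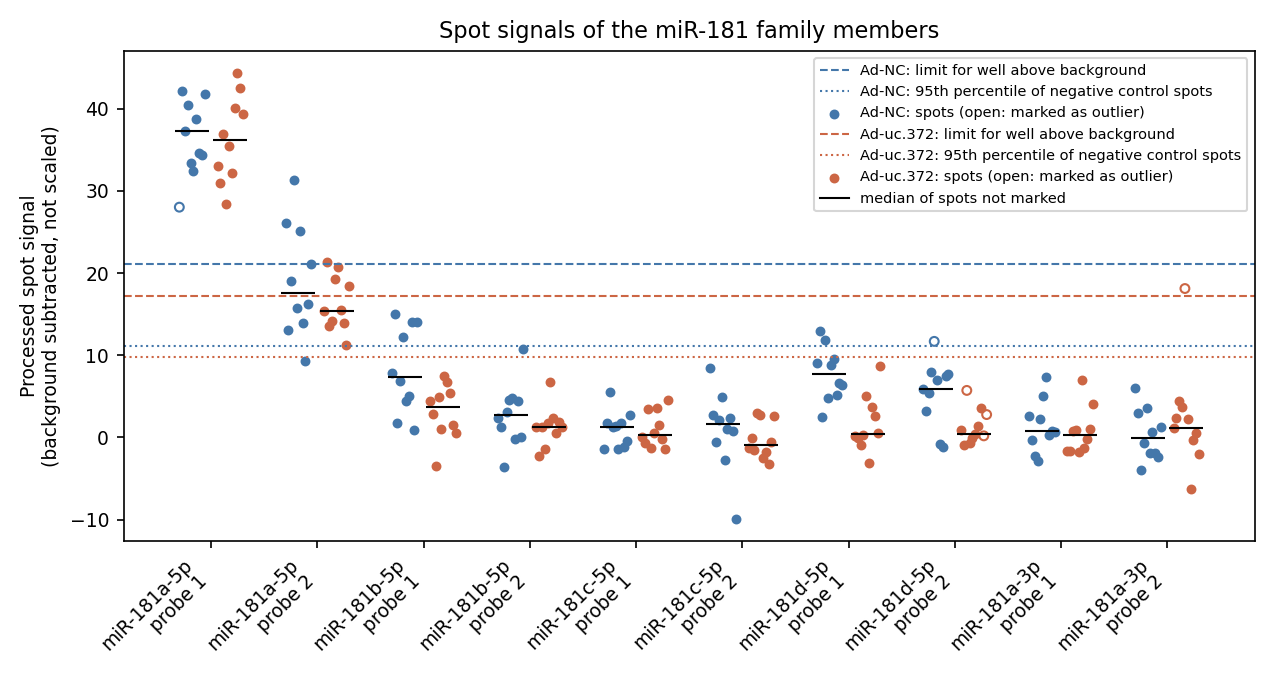
Processed signal of every spot (vertical axis, background subtracted and not scaled) for the 2 probes of each of the 5 members (horizontal axis), with Ad-NC in blue and Ad-uc.372 in orange. Open circles are spots marked as outliers, black bars are medians of the other spots, dashed lines are the limits of 21.1 and 17.3, and dotted lines are the 95th percentiles of the negative control spots. The brighter probe of miR-181a-5p lies above both limits on both arrays, its other probe straddles them, and the remaining 8 probes lie below apart from 1 open circle.

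miR-181a-5p, the member known from T cell signalling as well as from liver cancer, rested on 1 of its 2 probes. With Ad-NC, the 9 spots of the brighter probe (A_25_P00014832) that were not outliers had signals from 32.4 to 42.1 with a median of 37.2, and a mean of 37.2 ± 3.72 (SD). With Ad-uc.372, its 10 spots ran from 28.4 to 44.3 with a median of 36.2, and a mean of 36.3 ± 5.22 (SD). The ranges overlapped widely: 3 of the 10 spots with Ad-uc.372 were dimmer than any used with Ad-NC, and 2 were brighter than all of them. At the 9 positions on the array where the spot was usable in both conditions, 5 were dimmer with Ad-uc.372, so neither array was brighter throughout.

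The other probe of miR-181a-5p (A_25_P00010285) was dimmer and passed the limit in 4 of its 10 spots on each array, under the 50% needed. Its signals ran from 9.32 to 31.3 with a median of 17.6 with Ad-NC, and from 11.3 to 21.3 with a median of 15.4 with Ad-uc.372. All 10 spots with Ad-uc.372 lay within the range seen with Ad-NC. All 20 spots of both probes passed the software's weaker flag, for a signal positive and different from background, on each array, against 28.5% of all miRNA spots with Ad-NC and 28.8% with Ad-uc.372.

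To compare the arrays, log2 signals were scaled by subtracting the 75th percentile of those probes that passed on both, a reference signal of 304.6 for the Ad-NC array and 356.5 for the Ad-uc.372 array. The scaled log2 level of miR-181a-5p was then -3.04 with Ad-NC and -3.31 with Ad-uc.372, a difference of -0.27, or 1.21-fold lower with Ad-uc.372. The combined spot SD was 0.25, about as large as the difference. Of this difference, -0.04 was present before scaling and the rest, 0.23 on the log2 scale, is the shift between the 2 reference signals. The difference was under 1.5-fold, the size of change that the study's methods set, so 0 of the 1 measured member passed in either direction. Over all 229 measured miRNAs, 3 (1.31%) passed 1.5-fold upwards with Ad-uc.372 and 6 (2.62%) downwards.

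The difference of miR-181a-5p lay close to the bulk of the array. The 229 measured miRNAs had a median log2 difference of -0.17 with an SD of 0.29, and the middle 50% lay between -0.34 and 0.01. miR-181a-5p was 0.10 below that median and had the 80th lowest difference of the 229. By scaled level it was the 57th dimmest of them, which says how near to the limit its probe lies and not how abundant the miRNA is. The 20 measured miRNAs nearest in scaled level had a median log2 difference of -0.07, and ran from -0.58 to 0.33. The 3 miRNAs whose pair of scaled levels was nearest to that of miR-181a-5p, over the 2 arrays, were miR-638 with a log2 difference of -0.27, miR-7107-5p with -0.36 and miR-3648 with -0.14. With 2 arrays this likeness is a nearness of 2 values.

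**Figure D2:**
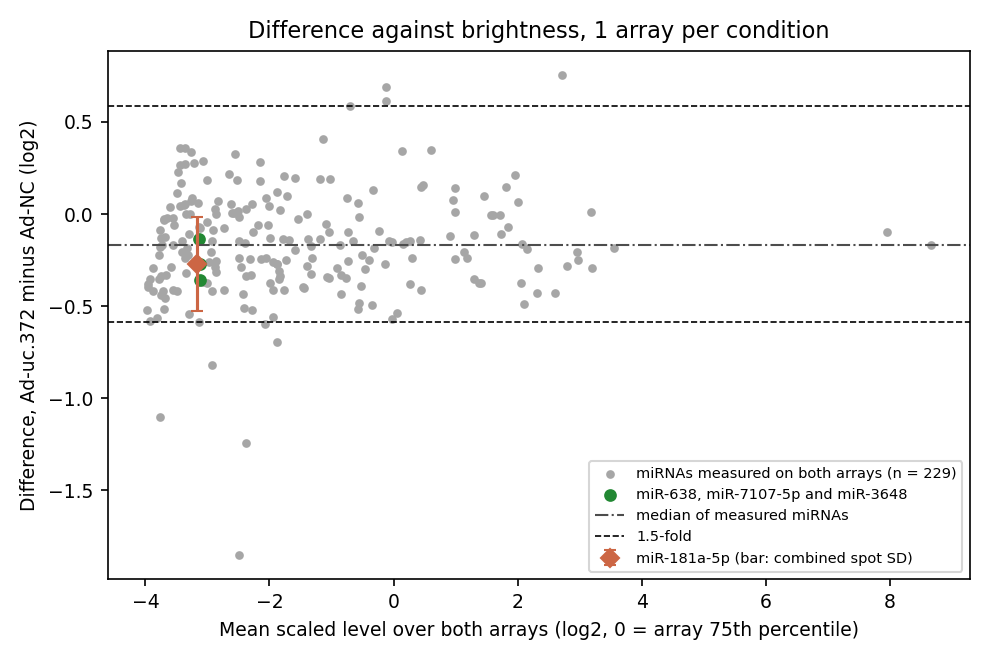
Log2 difference (Ad-uc.372 minus Ad-NC, vertical axis) against the mean scaled log2 level over both arrays (horizontal axis) for the 229 miRNAs measured on both arrays. On the horizontal axis, 0 is each array's 75th percentile over the probes that passed on both arrays. The diamond is miR-181a-5p with its combined spot SD as a bar, green points are miR-638, miR-7107-5p and miR-3648, the dash-dotted line is the median of -0.17, and dashed lines mark 1.5-fold. miR-181a-5p sits at -0.27 in the dim part of the cloud, between the dashed lines.

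For the members below the limit, signals are given without a fold change, since neither array gives them a level. miR-181d-5p, which is paired with miR-181c on chromosome 19, had the largest shift in mean signal of the members. The 10 spots of its brighter probe ran from 2.48 to 13.0 with a median of 7.76 with Ad-NC, and from -3.15 to 8.66 with a median of 0.40 with Ad-uc.372. Of these, 6 of the 10 spots with Ad-uc.372 were dimmer than the dimmest with Ad-NC, and 8 of 10 positions were dimmer. The second probe had 9 usable spots with Ad-NC, at a median of 5.94, and 7 with Ad-uc.372, at a median of 0.43, but its ranges, from -1.16 to 7.97 and from -0.88 to 3.56, overlapped fully.

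miR-181b-5p, which is encoded beside miR-181a in both of the other clusters and differs from miR-181d-5p by a single base, also had lower signals with Ad-uc.372. Its brighter probe ran from 0.91 to 15.0 with a median of 7.30 with Ad-NC, and from -3.52 to 7.44 with a median of 3.65 with Ad-uc.372. Here 8 of the 10 spots with Ad-uc.372 were at or above the dimmest with Ad-NC. Its other probe had medians of 2.74 and 1.30, and all 10 spots with Ad-uc.372 lay within the range with Ad-NC.

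Both miR-181b-5p and miR-181d-5p thus had spot signals mostly within the range of single negative control spots. The middle 90% of those control spots ran from -1.90 to 11.1 with Ad-NC and from -1.99 to 9.83 with Ad-uc.372. The weaker flag was nonetheless common with Ad-NC, on 9 and 7 of 10 spots for the probes of miR-181d-5p and 8 and 4 for miR-181b-5p. With Ad-uc.372 it marked 3 and 2 spots, and 5 and 1. Over all miRNA spots its shares were 28.5% with Ad-NC and 28.8% with Ad-uc.372. Among the 5893 probes, the brighter probe of miR-181d-5p lay at percentile 88.4 by mean signal with Ad-NC and 69.4 with Ad-uc.372, and its second probe at 84.0 and 56.2. The brighter probe of miR-181b-5p went from percentile 88.6 to 79.96 and its second probe from 74.4 to 65.6. The mean signals of the brighter probes fell by 6.09 for miR-181d-5p and fell by 5.06 for miR-181b-5p. Of the 5432 probes below the limit on both arrays, 0.83% had a shift as low as the first and 1.55% as low as the second, and the median shift was -0.24. The median percentile of those 5432 probes was 46.1 on each array, so most were dimmer than these brighter probes. Such shares are therefore no test of the members. The second probes had shifts of -4.08 for miR-181d-5p, with 3.0% of those probes as low, and of -1.42 for miR-181b-5p, with 26.2% as low. Probes in that stretch of the Ad-NC array had lower signals with Ad-uc.372 for the most part. They were picked by their place with Ad-NC alone, which by itself favours a lower signal on the other array. No set picked by its place with Ad-uc.372 was examined. The 589 probes at percentiles 80 to 90 with Ad-NC had a median shift of -1.41, and 90% of their shifts lay between -5.21 and 2.92. Of the 3 member probes in that stretch, the brighter probe of miR-181b-5p and the second probe of miR-181d-5p had shifts inside that range, and the brighter probe of miR-181d-5p had a shift outside it. These places were read after the values were seen, and they are descriptions of 1 array against another. A shift inside or outside the range of probes picked in this way is no test of the members.

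miR-181c-5p gave signals around the middle of all probes. Its probes had medians of 1.30 and 1.58 with Ad-NC and of 0.30 and -0.92 with Ad-uc.372, and for both probes all 10 spots with Ad-uc.372 were at or above the dimmest with Ad-NC. Their percentiles were 56.1 and 54.8 with Ad-NC and 61.0 and 41.5 with Ad-uc.372. The mean signal of the first probe was 1.01 on both arrays, and that of the second was 0.91 with Ad-NC and -0.25 with Ad-uc.372.

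miR-181a-3p, the arm opposite miR-181a-5p in MIR181A1, was also not measured. Its medians were 0.72 and -0.04 with Ad-NC and 0.30 and 1.20 with Ad-uc.372, at percentiles from 46.6 to 60.4 over both arrays. The signal of miR-181a-5p cannot be assigned to MIR181A1 or MIR181A2, so whether the arms of MIR181A1 differ was not tested.

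**Figure D3:**
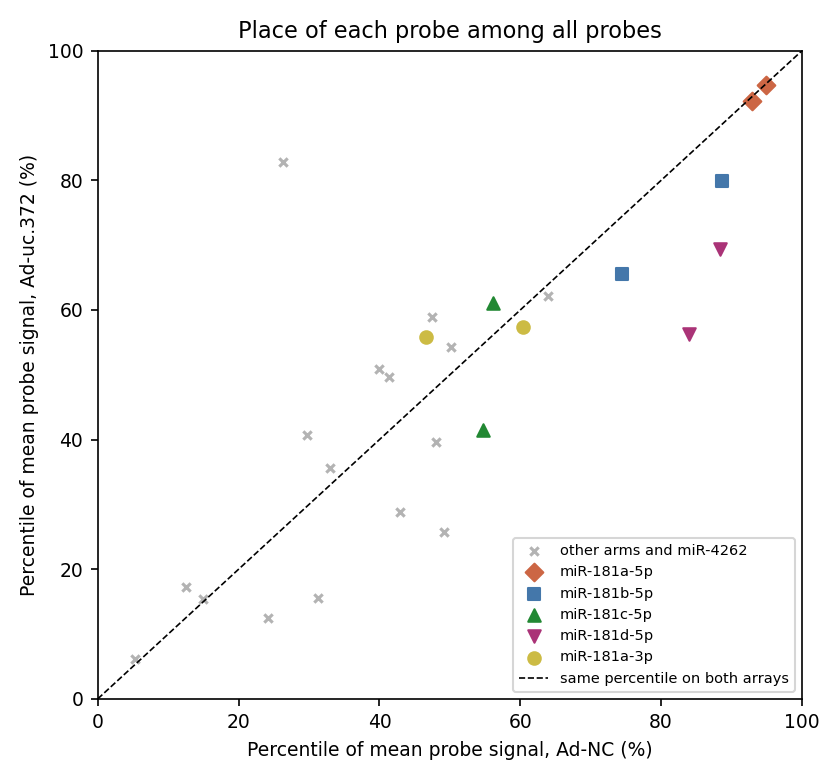
Percentile of the mean signal of each probe among all 5893 probes with Ad-NC (horizontal axis) and with Ad-uc.372 (vertical axis), both in percent, for the members by symbol and for the further arms of the family's hairpins and miR-4262 as crosses. Both probes of miR-181a-5p lie at the top right, between 92.2 and 94.9, near the dashed line of equal place, both probes of miR-181d-5p lie farthest below it among the members, and 1 cross, a probe of miR-181c-3p, lies far above it at 26.4 and 82.8.

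The clusters could be compared only in what was detected. Of the pairs of miR-181a and miR-181b on chromosomes 1 and 9, miR-181a-5p was measured and miR-181b-5p was not, and of the pair of miR-181c and miR-181d on chromosome 19 neither 5p member was. A difference between the clusters, or between the arms of MIR181A1, therefore has no value at the reported filter.

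The remaining arms of the same hairpins are on the array as well, together with miR-4262, the 1 further miRNA with the same seed among the 2248 whose sequence was found by name in RefSeq. They are shown because each could carry the same hairpin's output or the same seed.
miR-181a-2-3p: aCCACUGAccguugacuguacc
miR-181b-3p: cUCACUGAacaaugaaugcaa
miR-181b-2-3p: cUCACUGAucaaugaaugca
miR-181c-3p: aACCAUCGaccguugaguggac
miR-181d-3p: cCACCGGGggaugaaugucac
miR-4262: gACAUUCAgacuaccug
The 3p arms do not carry the ACAUUCA seed, and miR-181b-3p and miR-181b-2-3p share UCACUGA. None of these 6 miRNAs was well above background on either array, with 0 of their 120 spots past the limit in each condition. The mean signals of their 16 probes ran from -2.99 to 1.63 with Ad-NC and from -2.91 to 3.82 with Ad-uc.372. The highest of these was a probe of miR-181c-3p with 5 spots, whose median was -2.16 with Ad-NC and 1.66 with Ad-uc.372 and whose brightest spot reached 14.6. The other 3 probes of miR-181c-3p had medians between -0.83 and 1.43 over both arrays.

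The scanner software's own detection call per miRNA also had miR-181a-5p as the only detected member, on both arrays. The software's total signal for miR-181a-5p, summed over its probes on a scale other than that of the spot signals, was 7.97 with Ad-NC and 7.44 with Ad-uc.372. Before any constant was subtracted, the log2 difference of these totals was -0.10. The authors' deposited log2 values were 1.61 and 1.18, a difference of -0.42. For each of the 4 other members the deposited value was -4.71 with Ad-NC and -5.04 with Ad-uc.372, and the total signal was 0.1 on both arrays, as for all 2253 miRNAs that the software did not detect with Ad-NC and all 2230 with Ad-uc.372. The apparent difference of -0.33 for these members is therefore the difference between the constants subtracted from each array, 1.39 and 1.71, and not a measured change. The same constants were subtracted for miR-181a-5p and make up most of its -0.42.

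**Figure D4:**
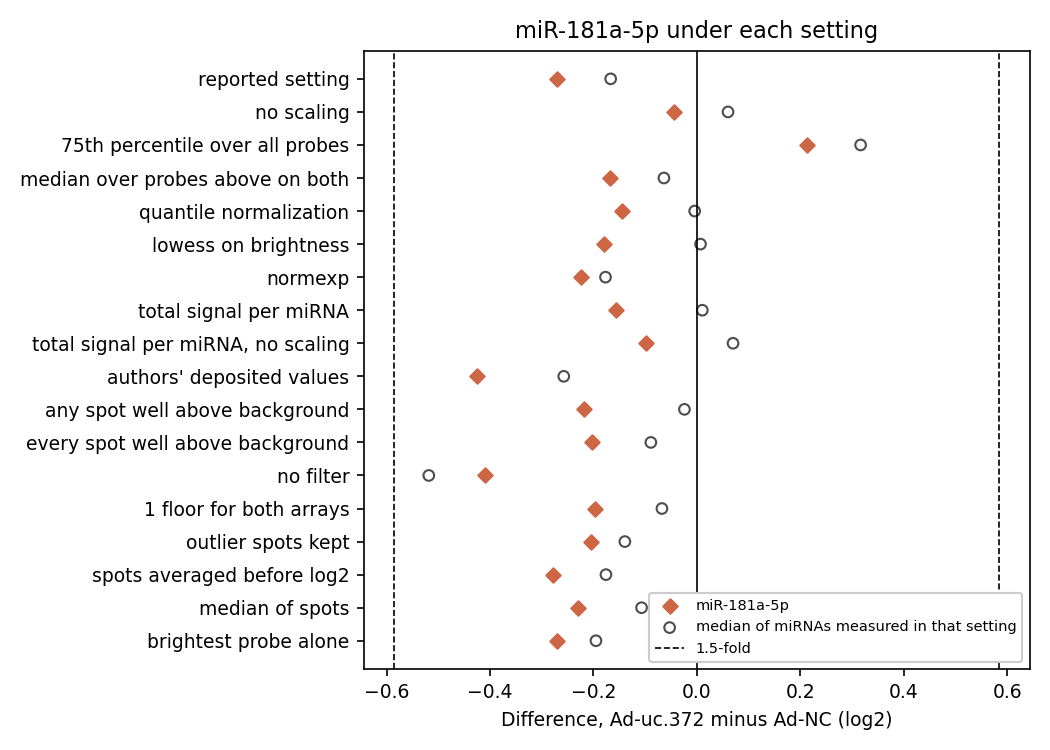
Log2 difference of miR-181a-5p (diamonds) and the median of all miRNAs measured in the same setting (open circles) on the horizontal axis, for the reported setting and 17 alternatives listed on the vertical axis, with 1.5-fold as dashed lines. Every diamond lies between the dashed lines, from -0.42 to 0.21, and all lie left of their open circle except with no filter on dim probes, at -0.41 against -0.52.

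The direction of the difference of miR-181a-5p depended on the scaling, though it was above 0 in only 1 of 18 alternatives. It was -0.04 with no scaling and 0.21 when all probes entered the 75th percentile. That percentile lay below the limit of each array. A change of reference adds the same amount to every miRNA and leaves the distance of 0.10 below the median of the measured miRNAs unchanged. Read with both of its probes and without a floor it was -0.33, a setting chosen after the data were seen.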

How the data were processed

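RNA of HepG2 cells given Ad-NC or Ad-uc.372 was hybridised to 1 miRNA array each. Per the file headers, the authors read the images with Agilent Feature Extraction, and the deposited spot intensity is background-subtracted and not normalized between arrays. The submitters' processing notes name version 10.10 of that software, and the file headers name another. Probe annotation in the headers is for hg19. A table of log2 values was also deposited, which the study's methods say were normalized with GeneSpring GX. Subtracting a constant per array from the log2 total signal gives these values within 0.001 for all miRNAs but 3 with Ad-NC and 7 with Ad-uc.372. The medians of the columns are -4.71 and -5.04. The kind of normalization is not given in the sources used here.

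Control spots and outlier spots (1273 with Ad-NC, 1657 with Ad-uc.372) were left out, and no spot was saturated. Dim spots were set to the limit of their array. Each probe's level is the mean log2 signal of its spots, less the 75th percentile of the probes that passed on both arrays. Where several probes of a miRNA passed on both, their differences were averaged. The methods' t-test cannot be made with 1 array per condition. The named miRNAs were the members, the further arms, miRNAs with the same seed and the 3 nearest in level. The members and lists were chosen with earlier results of these data known. Of the 5 members, 5 matched a RefSeq sequence by name. The steps were tested on simulated data. The alternative background correction was normexp (limma 3.58.1 under R 4.3.3, offset 50). All else ran in Python 3.11.15, using pandas 2.3.3, numpy 2.4.6, statsmodels 0.14.6 and matplotlib 3.10.9. Alternatives covered scaling, background correction, filter, floor and averaging.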

Additional observations from a re-analysis of the deposited data

How the results depend on the processing

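miR-181a-5p was under 1.5-fold in the reported setting and in each of 18 alternatives, 17 of them set in the plan and 1 added after the data were seen. Its log2 difference ran from -0.42 to 0.21 over these alternatives, was below 0 in 17 and above 0 in 1, and moved by more than its spot SD in 1, to 0.21 when all probes entered the 75th percentile. With miR-181a-5p as the 1 measured member, the members' median is the same value, except with no filter, where dim probes sit at each array's limit and the members' and the overall median were both -0.52. In each of the 16 alternatives that keep a filter, miR-181a-5p was the only member well above background on both arrays. The differences between clusters and between the arms of MIR181A1 have no value in these settings. No paired analysis was possible because there was 1 array for Ad-NC and 1 for Ad-uc.372, and no array could be left out.

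Over all measured miRNAs the median moved from -0.17 to 0.32 when all probes entered that percentile, which then stood at 2.83 on the Ad-NC array and 2.37 on the Ad-uc.372 array, below the limit of each. The split of miRNAs at least 1.5-fold higher against lower, 3 to 6, was 34 to 3 with that percentile, 6 to 4 without scaling, 5 to 4 with quantile normalization or lowess, 1 to 2 with normexp, 22 to 8 with the software's scaled totals and 27 to 8 with unscaled ones, 8 to 24 with the authors' values, 5 to 5 when any spot sufficed, 2 to 13 with no filter, 6 to 7 with the median of spots and 0 to 3 at 2-fold. It was 4 to 5 with the median as reference and 4 to 4 when every spot had to pass or with 1 floor for both arrays. The cause of these changes was not tested. Of the family's 10 probes, 1 passed on each array, and 8 belong to members that did not pass and so have no value at the reported filter.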

Other observations

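The control probes differed between the hybridisations to unequal extents. The control named hur_5 had a mean processed signal of 54.4 ± 15.5 (SD, 40 spots) with Ad-NC and 101 ± 30.3 with Ad-uc.372, a ratio of 1.86. The corner marker spots went the other way, at 125 ± 27.1 (SD, 362 spots) with Ad-NC and 60.0 ± 14.7 with Ad-uc.372, or 2.08 times brighter with Ad-NC. Of the brighter controls, hur_1, hur_2, hur_4, hur_6 and mr_1 had ratios of Ad-uc.372 over Ad-NC between 0.96 and 1.02, while dmr_3 had 1.16 and dmr_6 had 1.22. Between these in brightness, dmr_285 had a ratio of 1.30 and dmr_31a of 0.86. The mean signal of the measured miR-181a-5p probe, 37.2 and 36.3, lies below the means of all these controls, and whether the conditions that set the control signals also act on it was not tested.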
